A study of Mus musculus with 2 samples.

Results

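The 10 genes described here form a list of secreted and membrane Wnt antagonists: Wif1, Dkk1, Dkk2, Dkk3, Sfrp1, Sfrp2, Sfrp4, Frzb, Apcdd1 and Notum. They were chosen by gene name, with earlier results of these data known. Each was measured by 1 array probe. Thus 10 probes of 39429 on the array and 10 of the 20495 genes tested belong to them. Their levels were compared between ureters of Rbpj-cKO mouse embryos, genotype Tbx18(cre/+);Rbpj(fl/fl), and ureters of control embryos, genotype Rbpj(fl/?), all of strain NMRI at stage E14.5. Cre recombinase made from the Tbx18 locus removes Rbpj, the gene of the transcription factor through which Notch receptors act on their targets, from the mesenchyme around the ureteric epithelium, so other cells of the dissected ureter keep the gene. The second Rbpj allele of controls, any Cre allele in them, and the number of embryos behind each RNA are not given in the labels. Each of 2 arrays held both genotypes in different dyes: replicate 1 paired male embryos with Rbpj-cKO in red, and replicate 2 paired female embryos with Rbpj-cKO in green. Sex and dye orientation thus cannot be told apart. Wif1 was the member with the widest difference between genotypes, lower in Rbpj-cKO on both arrays. Of the 10 members, 4 went opposite ways on the arrays, against 69.2% of all genes.

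Wnt ligands are lipid-modified proteins that bind Frizzled receptors and the LRP5 and LRP6 coreceptors, and in the canonical branch stabilise beta-catenin. Antagonists act at several steps: WIF1 and the secreted Frizzled-related proteins bind the ligand, and DKK1 and DKK2 bind the coreceptor. APCDD1 sits in the membrane with affinity for ligand and coreceptor, and NOTUM cleaves the lipid from the ligand. In the embryonic ureter, Wnt ligands from the epithelium signal to the surrounding mesenchyme, where beta-catenin is required for the smooth muscle programme.

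The values below are those of 60-base probes. To show what was hybridised, the first 30 bases of the probes of the members on which the results turn are given 5′ to 3′.
Wif1 probe: ggctgatatctactcttccttttaggtttt
Sfrp1 probe: ttaaaatagtcattccggagagtcagggaa
Sfrp2 probe: tcggcatctaagtcttcaaacatttcgttg
Sfrp4 probe: cacagttgtctgtgtgcatactgtgtaaga
Frzb probe: gtgcaccagggtgttatttaacagaggtat
On build mm9 these probes lie at chr10:120537079-120537138 on the plus strand for Wif1, chr8:24559438-24559497 (plus) for Sfrp1, chr3:83577864-83577923 (plus) for Sfrp2, chr13:19724488-19724547 (plus) for Sfrp4 and chr2:80252582-80252641 (minus) for Frzb. Further probes lie at chr19:30621424-30621483 (minus) for Dkk1, chr3:131842357-131842416 (plus) for Dkk2, chr7:119259556-119259615 (minus) for Dkk3 and chr11:120515209-120515268 (minus) for Notum. Whether a probe lies in coding or untranslated sequence is not given in the files. Between 35% and 45% of a member probe's bases were G or C.

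Levels are normalised linear intensities of the 4 channels, and a probe's level cannot be set against that of another probe. Ratios are log2 of Rbpj-cKO over control within an array. All 10 members were well above background on 4 of 4 spots in every channel, so all passed the filter on dim probes. Rbpj had -1.13 on replicate 1 and -0.63 on replicate 2 by its brighter probe, and -0.48 and -0.37 by the other. Tbx18, whose locus carries the Cre allele, had 0.17 and -0.24. Of all genes tested, 16.1% were higher and 14.7% lower in Rbpj-cKO on both arrays. Ratios of the 2 arrays ran opposite ways across the 20495 genes (Pearson's r = -0.35), and 69.2% of genes had opposite signs. This enlarges the spread used by the limma test, in which no gene passed at adjusted p under 0.05 (0% called, 372 genes or 1.82% at an unadjusted p under 0.05). Of the listed ureter markers, 10 of 10 urothelial and 8 of 8 smooth muscle genes passed the filter. The smooth muscle list had median ratios of 0.04 on replicate 1 and -0.32 on replicate 2. In it, 3 genes had 2 negative ratios, 1 had 2 positive ones and 4 had opposite signs. Urothelial medians were -0.07 on each array, where 4 genes had 2 negative ratios, 2 had 2 positive ones and 4 had opposite signs. The part of these cell types in the members' ratios was not tested. In whole ureters, fewer cells of a type and less RNA per cell cannot be told apart.

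Wif1 encodes a secreted inhibitor that holds Wnt ligands through its WIF domain. Its level was 261 in male and 251 in female Rbpj-cKO ureters, against 382 in male and 470.01 in female control ureters. Both Rbpj-cKO channels lay below both control channels, and the Rbpj-cKO levels of the sexes were closer to each other than the control levels were. In log2 terms the male pair had a ratio of -0.55 and the female pair one of -0.91, a mean of -0.73 ± 0.25 (SD, n = 2 arrays), or 1.66-fold less. The 3 spots without an outlier flag gave -0.62 to -0.48 on replicate 1, and on replicate 2 the 3 such spots gave -0.95 to -0.85. The 95% interval of the mean in the limma fit was -1.08 to -0.38. Wif1 was the 1 member with an unadjusted p under 0.05 in limma, and it did not pass after adjustment over all genes (adjusted p = 1). With an intensity trend and robust moderation in limma the adjusted p of Wif1 was 0.541, where 5 genes (0.0244%) passed. Its mean ratio was the 19th lowest of the 20495. On replicate 1 the difference was 1.46-fold and so short of the 1.5-fold mark, which Wif1 passed on both arrays under 4 of 10 alternative settings.

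**Figure D1:**
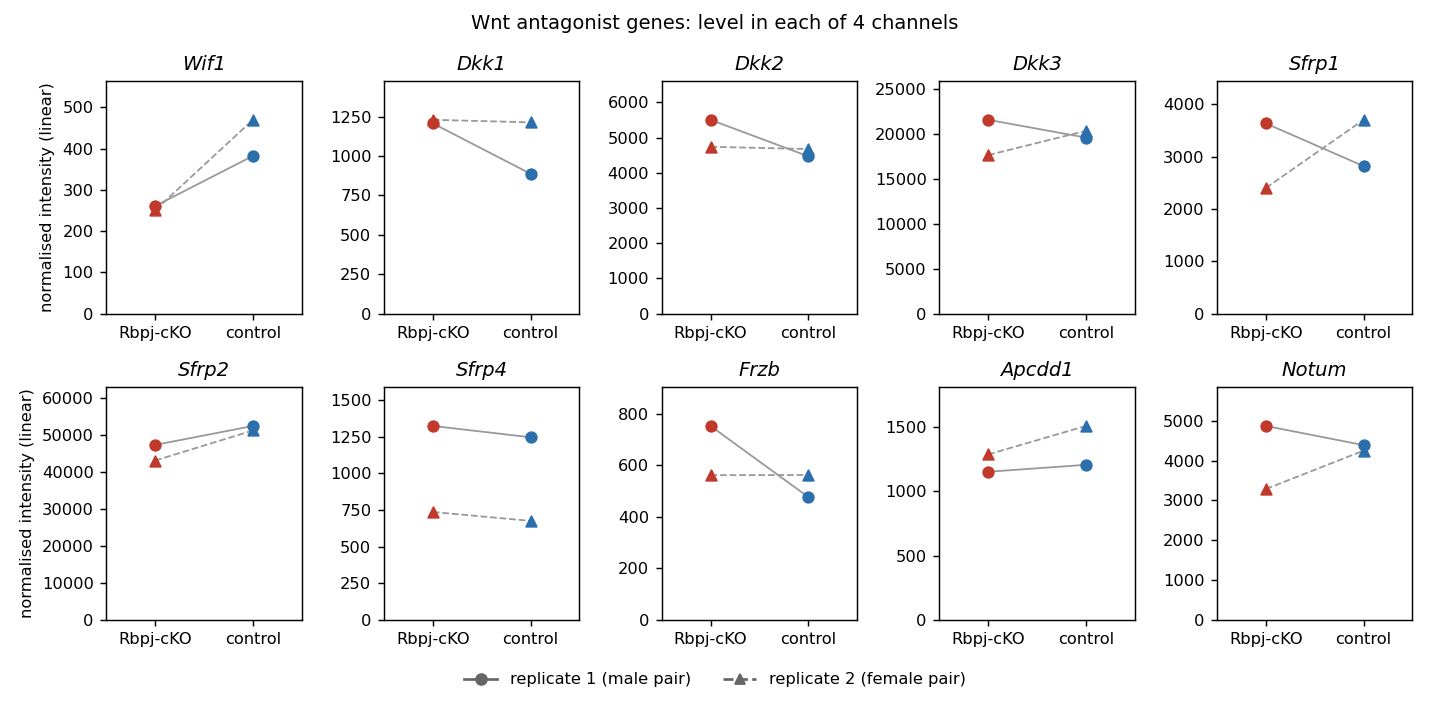
Normalised linear intensity (vertical axis, from 0, scaled separately per gene) of the 10 Wnt antagonist genes in Rbpj-cKO (left, red) and control (right, blue) ureters. Circles joined by a solid line are the male pair and triangles joined by a dashed line the female pair. Wif1 lies at 261 and 251 in Rbpj-cKO and at 382 and 470.01 in control, whereas the Sfrp1 lines cross.

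Most, though not all, listed markers of axial cartilage were lower in Rbpj-cKO too. Of 8 listed cartilage genes, 6 passed the filter (Pax9 and Matn1 did not). Of these 6, 4 were lower in Rbpj-cKO on both arrays (14.7% of all genes were), with list medians of -0.20 and -0.34. Their summed level was 20889.7 and 18988 in Rbpj-cKO and 25703 and 25903 in control ureters, with replicate 1 before replicate 2. Col2a1, the main cartilage collagen, had -0.42 and -0.48, and Pax1, a transcription factor of the sclerotome, had -0.59 and -1.55. Col9a1 had -0.29 and -0.48, and Sox9 had -0.11 and -0.19. Acan (0.09 and -0.14) and Nkx3-2 (0.04 and -0.12) had opposite signs. The part of cartilage tissue in the Wif1 result was not tested.

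Markers of nerve cells and of macrophages were on the higher side in Rbpj-cKO. All 11 listed genes of neural crest, glia and neurons passed the filter. Of these, 10 were higher on both arrays (16.1% of all genes were) and 0 lower (14.7%). Medians of the 11 were 0.63 and 0.70. Their summed level was 190333 and 119220 in Rbpj-cKO and 110204 and 96233.6 in control ureters, with replicate 1 before replicate 2. At least 1.5-fold higher on both arrays were 4 of them (Chga, Chgb, Dbh and Phox2a, named after their values were seen), and none of the 11 passed limma after adjustment. All 6 macrophage genes were higher on both arrays, with medians of 0.40 and 0.12, the second of which ranged from -0.06 to 0.16 over the alternative settings. Their sums were 21890.7 and 18745.5 in Rbpj-cKO, against 16638.2 and 17490.4 in control. The part of these cells in the members' ratios was not tested.

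Among the Dickkopf genes, none had a ratio of 1.5-fold or more on either array, as 1.75% of all genes had on replicate 1 and 3% on replicate 2. Dkk1, which blocks the LRP5 and LRP6 coreceptors, had 1207 and 1229.95 in Rbpj-cKO ureters of replicates 1 and 2, against 887 and 1214 in control ureters. The lower male control channel stands apart from the 3 others. Its ratios were 0.44 and 0.02, a mean of 0.23 ± 0.30 (SD, n = 2 arrays), with a 95% interval of -0.14 to 0.60. Dkk2, a relative that binds the same coreceptors, had 5508 and 4741 in Rbpj-cKO, against 4471 and 4677 in control. Its Rbpj-cKO channels both lay above the control channels, by a small margin in the female pair. The ratios of Dkk2 were 0.30 and 0.02 (mean 0.16 ± 0.20), and those of its 4 female spots reached from -0.02 to 0.08. Dkk3, a divergent member of the family, had 21555 and 17631 in Rbpj-cKO and 19577 and 20325 in control. The Dkk3 ratios were 0.14 and -0.21, so that the genotypes overlapped and the mean was -0.03 ± 0.24. All 3 had an adjusted p of 1 (limma).

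Secreted Frizzled-related proteins carry a cysteine-rich domain like that of the Frizzled receptors. Sfrp2 had 47214 and 42999.8 in Rbpj-cKO, against 52339.6 and 51115 in control ureters. The groups did not overlap, and the ratios of -0.15 and -0.25 differed little between arrays (mean -0.20 ± 0.071, 1.15-fold less). Its 95% interval nonetheless ran from -0.51 to 0.12, since the limma fit draws on the spread of all genes. Sfrp1 had 3636 and 2402 in Rbpj-cKO and 2819.8 and 3705 in control. It was higher in Rbpj-cKO in the male pair (0.37) and lower in the female pair (-0.63), the widest gap of any member. The spots of Sfrp1 lay between 0.32 and 0.39 on replicate 1 and between -0.67 and -0.52 on replicate 2, so the gap exceeds the spread between spots. Its mean of -0.13 ± 0.70 therefore describes neither pair.

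Frzb, also known as secreted Frizzled-related protein 3, had 753 and 562 in Rbpj-cKO, against 477 and 562 in control ureters. The male pair differed 1.58-fold (0.66) and the female pair did not (-0.0016), with female spots from -0.04 to 0.04. Its mean of 0.33 ± 0.47 (95% interval -0.11 to 0.77) thus rests on replicate 1. Sfrp4 had 1324 and 736 in Rbpj-cKO and 1247 and 676 in control, with ratios of 0.09 and 0.12 (mean 0.11 ± 0.026). The genotypes were close together within each array, and the arrays far apart. None of the Frizzled-related genes passed the test (limma adjusted p = 1 for each).

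Apcdd1, a membrane glycoprotein that binds Wnt ligand and LRP5, had 1153 and 1288 in Rbpj-cKO, against 1207 and 1510.2 in control ureters. Its probe lies at mm9 chr18:63112729-63112788 on the plus strand. Its ratios of -0.07 and -0.23 gave a mean of -0.15 ± 0.12, and the genotypes overlapped because the female levels were above the male ones. Notum, the enzyme that removes the palmitoleate of Wnt ligands, had 4872 and 3287 in Rbpj-cKO and 4391 and 4252.5 in control. The female Rbpj-cKO channel was the low one, and the ratios of 0.15 and -0.37 had opposite signs (mean -0.11 ± 0.37). Both genes had an adjusted p of 1 (limma).

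**Figure D2:**
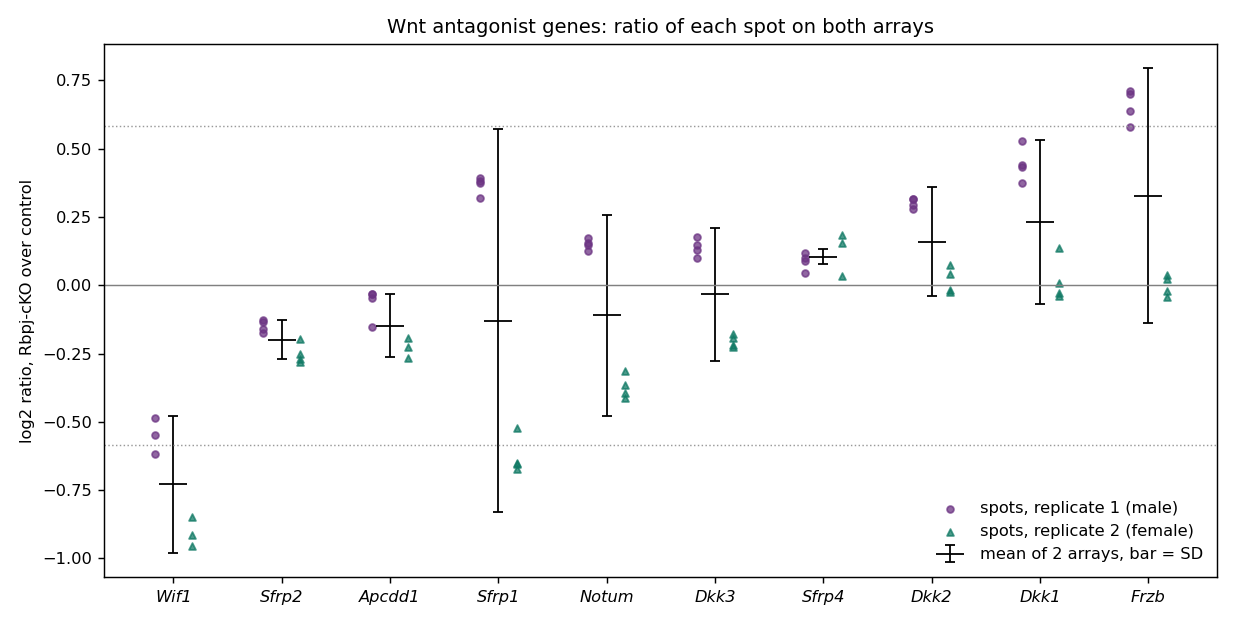
Log2 ratio of Rbpj-cKO over control (vertical axis) for each Wnt antagonist gene, ordered by mean. Small symbols are the spots without an outlier flag (circles for the male pair, triangles for the female pair), horizontal bars with whiskers the mean ± SD of 2 arrays, and dotted lines a 1.5-fold difference. Wif1 spots reach from -0.95 to -0.48 over both arrays, and the Sfrp1 spots of the arrays lie on opposite sides of 0.

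Over the set, 3 of 10 genes were lower on both arrays (Wif1, Sfrp2 and Apcdd1), against 14.7% of all genes. Another 3 were higher on both (Dkk1, Dkk2 and Sfrp4), against 16.1%. The female ratios of Dkk1 and Dkk2 were 0.02 each, with spots on both sides of 0. Frzb was also higher on both arrays in 4 of 10 alternative settings, with female ratios of 0.02 to 0.03. With median centring of the arrays, 1 gene (Wif1) was lower on both and 0 were higher. The median of the 10 mean ratios was -0.07, where that of all genes was -0.0033. Both Rbpj-cKO channels lay below both control channels for Wif1 and Sfrp2 (8.45% of all genes), and above them for Dkk2 (10.3%). None of the 10 differed 1.5-fold the same way on both arrays (0.195% of all genes did), and none passed limma after adjustment (0% of all genes).

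**Figure D3:**
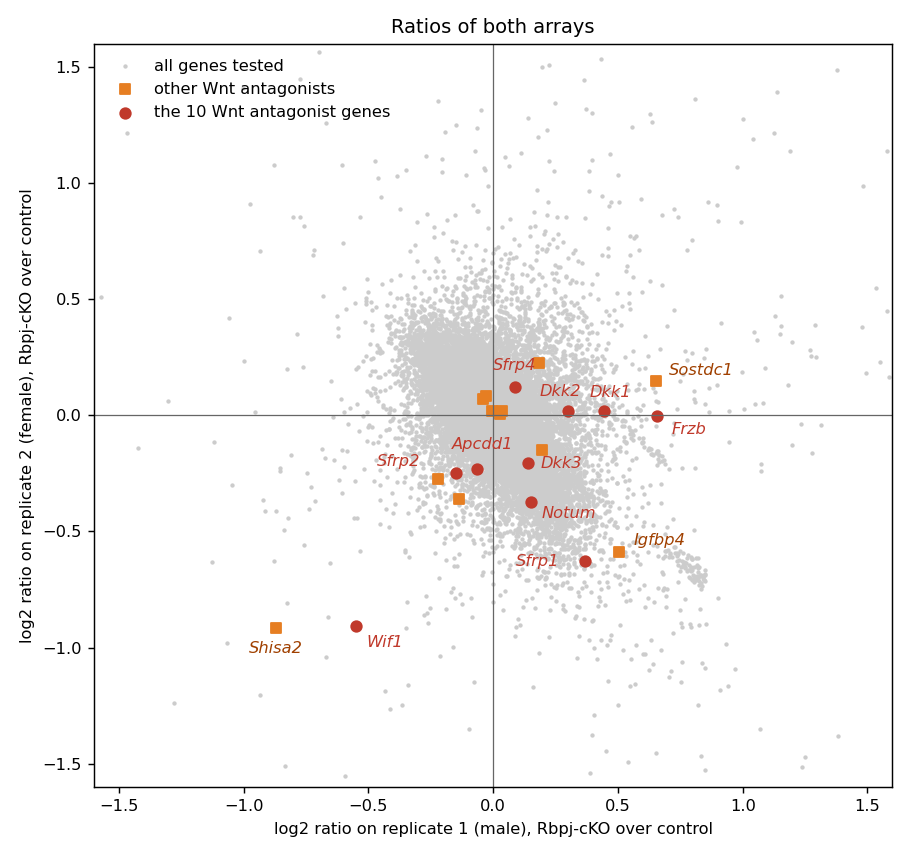
Log2 ratio of Rbpj-cKO over control on replicate 1 (male, horizontal axis) and replicate 2 (female, vertical axis) for all 20495 genes tested (grey), the 10 Wnt antagonist genes (red circles) and 12 other Wnt antagonists (orange squares). The axes end at 1.6 and leave out 28 genes. Wif1 (-0.55 and -0.91) and Shisa2 (-0.87 and -0.91) lie apart from the other antagonists at the lower left.

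The arrays differed in one direction for most of the set. In 9 of 10 members the ratio was higher on replicate 1 than on replicate 2, as in 49.8% of all genes, with Sfrp4 as the exception. The medians of the members were 0.14 on replicate 1 and -0.22 on replicate 2. Base composition of the probes also moved with the gap between arrays. Genes with probes of 35% to under 40% G and C had a median ratio gap (replicate 1 minus replicate 2) of -0.08, and those of 50% and over had 0.13. The 6 members in the first of these classes (Wif1, Dkk1, Dkk2, Dkk3, Frzb and Notum) had gaps of 0.28 to 0.66. Outer deciles of the gap in that class were -0.44 and 0.33. The part of base composition in the members' gaps was not tested. List medians of muscle and blood markers ran the same way as those of the members. All 8 skeletal muscle genes had opposite signs (medians 0.74 and -1.25), against 69.2% of all genes. Their summed level was 18695 in male and 9154 in female Rbpj-cKO ureters, against 9227 in male and 28801 in female control ureters. The 8 erythroid genes had medians of 0.22 and -0.55. Opposite signs were found in 6 of them, a share near the 69.2% of all genes, and 2 were lower on both arrays. Of the 6, Epor ran the other way (-0.07 and 0.01). Erythroid sums were 144036 and 59763 in Rbpj-cKO, against 108297 and 101138 in control. All genes of both lists passed the filter. The part of these tissues in the gaps of Sfrp1, Notum, Dkk3 and Frzb was not tested.

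Sfrp4 differed between the arrays rather than between genotypes. In female ureters its level was 736 with Rbpj-cKO and 676 in control, against 1324 and 1247 in male ureters. Female levels were thus lower in both genotypes, with log2 ratios of female over male of -0.85 in Rbpj-cKO and -0.88 in control. A difference of at least 1.5-fold toward lower female levels in both genotypes was found in 84 genes (0.41%), and Sfrp4 was the 1 member among them. With the scanner's processed signals, its levels were 195 and 174 in female and 426 and 405 in male ureters, a mean log2 ratio of -1.17. With 1 array per sex, sex and array cannot be told apart, and the difference was not tested.

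Promoter sequence in the RefSeq table (build GRCm38.p6) matched 5 of the 10 genes, namely Wif1, Sfrp2, Frzb, Dkk1 and Dkk2. The core TGGGAA bound by RBPJ and the core CTTTGAT bound by TCF/LEF factors were searched on both strands of the 250 bases before each gene's start. The first was found in 1 of 5 member promoters (Frzb), against 21.6% of 32851 promoters, and the second in 0 of 5, against 3.2%. The Wif1 and Frzb stretches are shown because they belong to the members with the lowest and the highest mean ratio, with a TGGGAA match in capitals.
Wif1 promoter (chr10:121033754-121034003, plus strand): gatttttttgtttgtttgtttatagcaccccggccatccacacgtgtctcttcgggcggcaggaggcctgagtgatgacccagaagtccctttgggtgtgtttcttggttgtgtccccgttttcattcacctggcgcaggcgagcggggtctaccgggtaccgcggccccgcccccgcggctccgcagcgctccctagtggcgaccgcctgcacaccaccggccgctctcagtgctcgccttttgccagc
Frzb promoter (chr2:80447397-80447646, minus strand): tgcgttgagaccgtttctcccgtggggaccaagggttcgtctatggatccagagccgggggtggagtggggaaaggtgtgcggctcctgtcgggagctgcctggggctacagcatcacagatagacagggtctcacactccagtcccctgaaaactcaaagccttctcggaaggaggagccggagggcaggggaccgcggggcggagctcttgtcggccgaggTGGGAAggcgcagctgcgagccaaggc
The Frzb match begins 27 bases before the start. The absence of these letters from the Wif1 window speaks only of that window.

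Other genes of the pathway were taken from lists. Of 17 further Wnt antagonists, 12 passed the filter, with 4 higher and 3 lower on both arrays (16.1% and 14.7% of all genes). The median of these 12 mean ratios was 0.017. Shisa2, which retains Frizzled and FGF receptors in the endoplasmic reticulum, was the 1 gene of the pathway lists that differed 1.5-fold on both arrays. Its levels were 3235 and 2593 in Rbpj-cKO, against 5917 and 4888 in control ureters. The ratios of Shisa2 were -0.87 and -0.91 (mean -0.89 ± 0.031, limma adjusted p = 0.394), and it was at least 1.5-fold lower on both arrays in all 10 alternative settings too. Sostdc1, a secreted BMP and Wnt antagonist, had 0.65 and 0.15. Kremen2, a receptor for Dickkopf proteins, had -0.14 and -0.36.

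**Figure D4:**
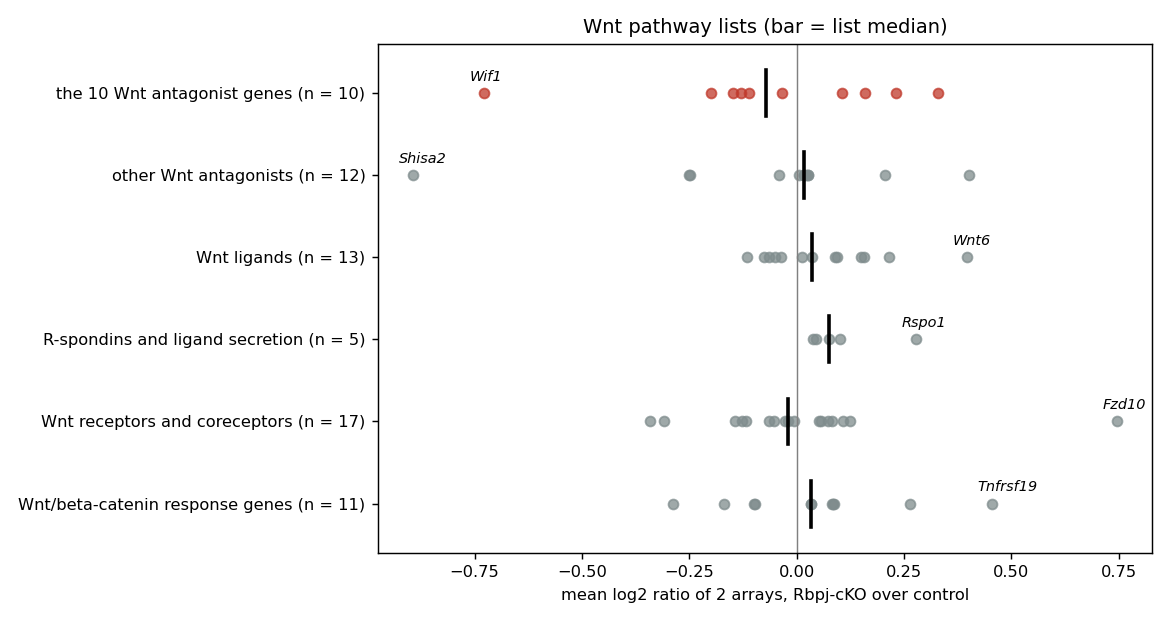
Mean log2 ratio of 2 arrays, Rbpj-cKO over control (horizontal axis), for the 10 Wnt antagonist genes and 5 lists of the pathway, with 1 point per gene and a bar at each list's median. List medians lie between -0.07 and 0.08, and Wif1 (-0.73), Shisa2 (-0.89) and Fzd10 (0.75) lie farthest from 0.

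On the activating side, 13 of 19 listed Wnt ligands passed the filter, 4 of them higher and 2 lower on both arrays. Wnt6 had 0.37 and 0.42, Wnt5a 0.07 and 0.36, and Wnt9b, a ligand of the ureteric epithelium, 0.17 and 0.15. The 2 ligands lower on both arrays were Wnt7b (-0.23 and -0.0014) and Wnt5b (-0.09 and -0.01). Of 17 receptors and coreceptors past the filter, 3 were higher and 4 lower on both arrays. The Frizzled receptor gene Fzd10 had 0.39 and 1.10 (mean 0.75 ± 0.50, limma adjusted p = 1). Fzd9 had -0.17 and -0.51, and Lgr4, a receptor for R-spondins, had -0.36 and -0.26. The R-spondin genes, whose products amplify Wnt signalling, were lower in Rbpj-cKO on replicate 1 and higher on replicate 2. Rspo1 had -0.16 and 0.71, Rspo2 had -0.22 and 0.38, and Rspo3 had -0.02 and 0.22.

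Among 11 response genes of beta-catenin signalling, 3 were higher on both arrays (16.1% of all genes were) and 3 lower (14.7%). The median of the 11 mean ratios was 0.033. Axin2, a feedback inhibitor and common readout of the pathway, had 621 and 661 in Rbpj-cKO, against 605 and 604 in control ureters. Its ratios were 0.04 and 0.13 by the brighter probe, and -0.05 and 0.21 by the other. Lef1, a transcription factor of the pathway, had -0.09 and -0.25, and Sp5 had 0.23 and 0.30. Tnfrsf19 had 0.27 and 0.64 by its brightest probe, and -0.06 and 0.12 by the other (mean 0.03). Cdkn2b had -0.0068 and -0.57. None of the genes in these lists passed limma after adjustment (0% of all genes did).

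The genes whose pair of ratios lay nearest to that of Wif1 (Euclidean distance over 2 arrays) were C1ql3 at a distance of 0.12, Myocd at 0.18, Dpt at 0.23, Irx2 at 0.28 and Cyp26a1 at 0.29. Myocd, the coactivator of smooth muscle genes, had -0.67 and -1.04. With 2 arrays this is a likeness of 2 numbers, and no gene lay within 0.1 of Wif1.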

How the data were processed

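RNA of ureters was measured on 2 two-colour Agilent arrays. Mean and local background median intensity of each spot and channel were deposited as linear values with no normalization, per the file headers. Processed intensity was deposited after background subtraction, detrending and dye normalization by Agilent Feature Extraction 10.7.3.1, per the file headers and the submitters' processing notes. The log10 ratio deposited per spot is processed red over green, per the file headers. Other values, flags of 0 or 1 for signal well above background, saturation and outliers, were deposited too, per the file headers. The score in the authors' deposited series table has no stated method. It ran with the processed ratios (r = 0.781 and 0.849 across probes), was read as signed fold change and served as an alternative. No spot was saturated, and 3.57% and 3.90% of the spots had an outlier flag and were left out.

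Mean signals were corrected with normexp (offset 50), normalized by loess within arrays with control spots at weight 0, and averaged over up to 4 spots in limma 3.58.1 under R 4.3.3. Levels were scaled between arrays by Aquantile. Replicate 2 was turned for its exchanged dyes. Probes needed 2 spots well above background in a channel on each array, and the brightest probe stood for a gene (20495 genes, named through RefSeq accessions where possible). Mean ratios were tested against 0 with lmFit and eBayes, two-sided, with Benjamini-Hochberg adjustment over all genes and 1 residual degree of freedom. The number of arrays limits the precision. Labels do not say that replicates came from separate litters, so p-values measure the spread between these samples only. The procedure was run on simulated data with noise drawn separately for each array. Ratios of the real arrays ran opposite ways, so that run checked the code and not the performance of the test here. Members and lists were chosen with earlier results of these data known. Named are all members, up to 3 genes of each pathway list with the largest absolute mean ratio, genes at 1.5-fold on both arrays, Axin2, Lef1, Rbpj, Tbx18 and the 5 genes nearest to the member with the largest mean. Col2a1, Pax1, the other cell type markers named, Wnt7b, Wnt5b and Igfbp4 (in a plot) were chosen after their values were seen. Alternatives were other background corrections, normalizations, filters, probe rules, moderation and each array alone.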

Additional observations from a re-analysis of the deposited data

Results flagged for a closer look

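With 1 array per sex, the male and the female pair of a few genes went opposite ways by more than 2 spot SDs on each array. The male log2 ratio minus the female one was 0.99 for Sfrp1, 0.52 for Notum and 0.34 for Dkk3. It was -0.87 for Rspo1, which was lower in Rbpj-cKO in the male pair and higher in the female pair. The difference between the pairs was not tested, and sex and dye orientation cannot be told apart here.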

How the results depend on the processing

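In all 10 alternative settings that used both arrays, the mean ratio of each of the 10 Wnt antagonist genes kept its sign. None of the 10 genes reached adjusted p under 0.05 in them. On replicate 1 alone, Dkk3 (0.14), Sfrp1 (0.37) and Notum (0.15) had the sign opposite to their mean. Frzb (-0.0016) did so on replicate 2 alone. The Wif1 mean ranged from -0.94 to -0.71 over the 10 settings, with limma adjusted p from 0.434 to 1. Genes called over the whole array numbered 0 as reported, 1 with the scanner's processed signals and 5 with trend and robust moderation. Genes that differed 1.5-fold or more in one direction on both arrays numbered 40 as reported, 88 with processed signals and 85 with the authors' table. With median centring, 1 member was lower and 0 were higher on both arrays. The cause of these changes was not tested. Leaving out an array left 359 to 614 genes at 1.5-fold on the other, with 3 to 7 members lower and 3 to 7 higher on it, and no test. The Sfrp4 level of female over male, compared after seeing the data, had a log2 mean of -0.86 as reported and -1.17 with processed signals. Each ratio already pairs the genotypes within an array, and no further block could be fitted. Member signals were well above background on all spots, and the Wif1 mean was -0.73 as reported, -0.84 with a normexp offset of 10 and -0.94 with processed signals.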
